A study of Caenorhabditis elegans with 4 samples.

Results

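The genes described here are cuticle collagens of Caenorhabditis elegans whose mutants have an altered body shape and which lie outside the annular furrow group: dpy-4, dpy-5, dpy-13, dpy-14, dpy-17, rol-6, sqt-1, sqt-2, sqt-3 and lon-3. They were taken by symbol from the probes whose platform annotation names exactly 1 gene. Of the 10 genes, 9 had such a probe, out of 14943 genes with one in the whole table. dpy-14 had none and was not analysed here. dpy-4 and sqt-3 had 2 probes each and the other genes 1. All 9 had a value on every array, so the filter on missing values removed no measured gene.

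RNA came from wild-type worms at L4, the last larval stage, in 4 preparations. Each preparation was hybridised on its own 2-channel array against wild-type mixed reference RNA, with L4 in channel 2 and the reference in channel 1. The labels give no strain, sex, culture conditions or hours within the stage, and they do not give the stages mixed in the reference. Separate cultures are not mentioned, so all p-values measure only the spread between these 4 samples, which may be technical. Values are log2 ratios between the channels, centred on each array's median. No source used here states which channel is the numerator. A positive value is called higher in L4, and this direction is likely rather than settled, because each array is described in the labels as L4 against the reference.

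The nematode cuticle is a collagen matrix that the epidermis secretes anew before each moult. Its collagens are short chains with Gly-X-Y repeats that fold as trimers. They are hydroxylated in the endoplasmic reticulum, cut by proteases and crosslinked outside the cell. Cuticle collagen genes are transcribed in timed waves within each moulting cycle, and some are used only at certain stages. Loss of a dpy collagen gives short, fat (dumpy) worms, and sqt and rol alleles give squat or helically twisted worms that roll. Loss of lon-3 gives long worms.

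In L4, 5 of the 9 measured genes were higher than in the reference, namely dpy-4, dpy-5, dpy-13, lon-3 and sqt-2, and dpy-17 was lower. sqt-1, sqt-3 and rol-6 did not pass the threshold. As background, the share called among named genes was 23.1%, made up of 13.4% higher and 9.66% lower, and among all probes and genes it was 21.7%, with 11.9% higher and 9.77% lower. The median of the 9 mean log2 ratios was 1.44, against 0.04 for all 14887 named genes tested. The test was limma's moderated test of the mean log2 ratio against 0, two-sided, with p-values adjusted by Benjamini-Hochberg over all 19897 probes and genes and a threshold of 0.05.

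Among the dumpy genes, dpy-5, which encodes a cuticle procollagen needed for normal body length, had log2 ratios of 3.17, 1.38, 2.70 and 3.26 in preparations 1 to 4. All 4 arrays were above 0, with preparation 2 well below the other three. The mean was 2.63 ± 0.33 (SE, n = 4), a 6.18-fold difference (adjusted p = 0.00163, 95% interval 1.87 to 3.38), and dpy-5 had the highest mean of the 9 genes. It ranked 171 from the top among the 14887 named genes, or from the bottom if the ratio runs the other way.

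dpy-13, the gene of another collagen whose loss makes worms dumpy, had 2.93, 1.16, 2.88 and 2.50. Its mean was 2.37 ± 0.32 (SE, n = 4), a 5.17-fold difference (adjusted p = 0.00212). dpy-4, with the same loss phenotype, had 2.76, 1.30, 2.54 and 2.59 as the average of its 2 probes. Both genes were above 0 on all 4 arrays, and both were lowest in preparation 2. The mean of dpy-4 was 2.30 ± 0.28 (SE, n = 4), a 4.91-fold difference (adjusted p = 0.00159). Its probes were similar, with means of 2.05 and 2.54 log2 units, and each passed when kept separate (adjusted p = 0.00158 and 0.00194).

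lon-3 encodes a collagen that acts on length in the opposite way to the dpy genes, since its loss lengthens the worm and extra copies shorten it. Its log2 ratios were 2.58, 0.71, 2.93 and 3.58. All 4 arrays were above 0 but they were widely spaced, with a range of 2.87 log2 units. The mean was 2.45 ± 0.42 (SE, n = 4), a 5.46-fold difference (adjusted p = 0.00575), in the same direction as dpy-4, dpy-5 and dpy-13. These 4 genes passed in every alternative setting tried, lon-3 with the highest adjusted p, at 0.046.

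dpy-17 differed from the other dumpy genes in sign. Its log2 ratios were -3.67, -4.19, -3.89 and -3.13 in preparations 1 to 4. All 4 arrays were far below 0. The mean was -3.72 ± 0.24 (SE, n = 4), a 13.2-fold difference (adjusted p = 0.000193, 95% interval -4.27 to -3.17), the 15th lowest mean among the 14887 named genes, or the 15th highest if the ratio runs the other way. It passed in every alternative tried, with means from -3.92 to -3.56. Of the 9 genes, dpy-17 also had the smallest spread between arrays, with an SD of 0.45. Its distance from dpy-5 can be read within each array, where centring has no effect. The log2 ratio of dpy-5 minus that of dpy-17 was 6.84, 5.57, 6.59 and 6.39, a mean of 6.35 ± 0.55 (SD, n = 4).

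**Figure D1:**
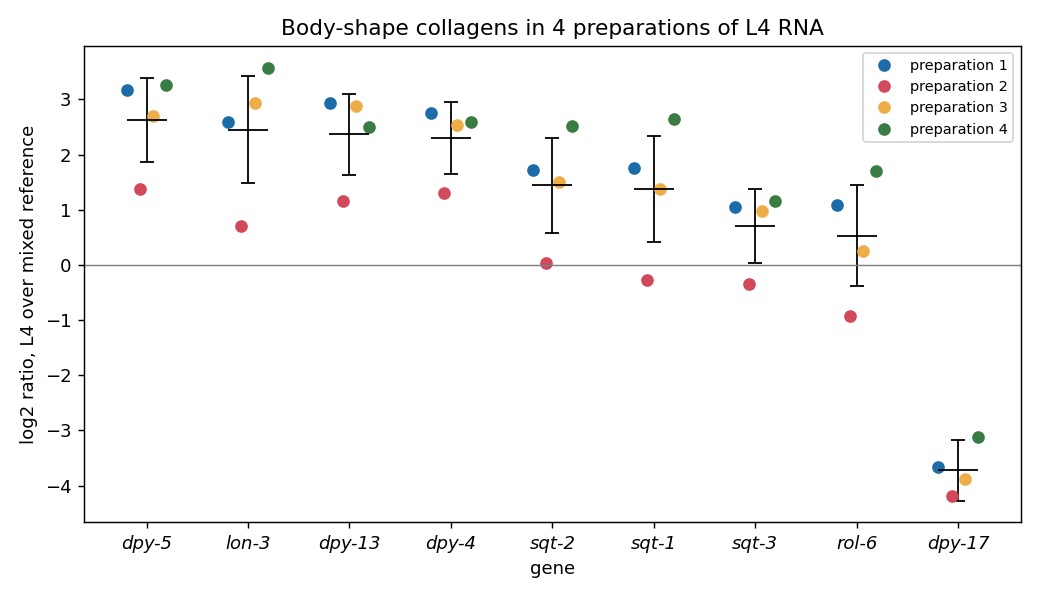
Log2 ratio of L4 RNA over the mixed reference (vertical axis) for each of the 9 measured genes (horizontal axis, ordered by mean). Points are the 4 preparations, horizontal marks the means and bars the 95% intervals from limma, not adjusted for multiple tests. dpy-17 lies between -4.19 and -3.13, apart from the other 8 genes, and preparation 2 is the lowest point of every gene.

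sqt-3 is given beside dpy-17 because the 2 genes interact genetically in body shape, together with dpy-31, the gene of an astacin metalloprotease that processes collagens. sqt-3 had log2 ratios of 1.04, -0.35, 0.99 and 1.15 as the average of its probes. It was above 0 in 3 of the 4 preparations. The mean was 0.71 ± 0.29 (SE, n = 4) and did not pass (adjusted p = 0.119). Its probes had means of 0.92 and 0.50, and they differed most in preparation 4, at 1.90 and 0.40. Neither passed when kept separate (adjusted p = 0.0941 and 0.234). Without preparation 2 the gene passed, with a mean of 1.06 (adjusted p = 0.0216). Within each array, dpy-17 minus sqt-3 was -4.71, -3.84, -4.87 and -4.28, a mean of -4.43 ± 0.46 (SD, n = 4). The protease gene dpy-31 had a mean of -0.39 ± 0.30 (SE, n = 4) and did not pass (adjusted p = 0.378). In these 4 preparations dpy-17 and sqt-3 had ratios of opposite sign, except in preparation 2, where both were below 0.

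The remaining squat and roller genes had smaller ratios and a wide spread. sqt-2 had 1.71, 0.03, 1.50 and 2.52, so that it was near 0 in preparation 2 and clearly above it in the others. The mean was 1.44 ± 0.37 (SE, n = 4), a 2.72-fold difference (adjusted p = 0.0277). This call was lost without preparation 1, 3 or 4 (adjusted p = 0.0557, 0.104 and 0.0863) and with each array centred on housekeeping genes (0.0691). It was also lost when the 2 arrays whose titles share a letter code, preparations 1 and 4, were averaged first (0.0646), where the mean fell to 1.22. The meaning of that code is not given. The titles also carry date-like strings, the earliest for preparation 4, whose meaning is not given either.

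sqt-1, whose different alleles can shorten, lengthen or twist the worm, had 1.75, -0.28, 1.38 and 2.64. The mean was 1.37 ± 0.42 (SE, n = 4), with an adjusted p of 0.0507, just outside the threshold. It passed without preparation 2, with a mean of 1.92 (adjusted p = 0.00601), and when only features with a value on all 4 arrays were tested (0.0451). rol-6, best known from a dominant roller allele used as a transgenic marker, had 1.09, -0.93, 0.26 and 1.70. Its mean was 0.53 ± 0.40 (SE, n = 4), it did not pass (adjusted p = 0.362), and its 95% interval ran from -0.38 to 1.45. It did not pass in any alternative tried, the lowest adjusted p being 0.0656. Leaving out preparation 4 brought its mean down to 0.14, and leaving out preparation 2 raised it to 1.02.

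sqt-1 and sqt-2 were close to each other on every array. sqt-1 minus sqt-2 was 0.03, -0.31, -0.11 and 0.12, a mean of -0.07 ± 0.19 (SD, n = 4). sqt-1 and rol-6, whose products act together in the cuticle, had a difference that varied less between arrays than either gene. rol-6 minus sqt-1 was -0.66, -0.65, -1.12 and -0.94, a mean of -0.84 ± 0.23 (SD, n = 4). The SD was 1.22 for sqt-1 itself and 1.14 for rol-6. All 4 differences had rol-6 below sqt-1. A steady difference was not particular to this pair. The SD was 0.12 for dpy-4 minus sqt-3 and 0.23 for dpy-5 minus sqt-3.

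Ordered by mean log2 ratio, which is not an order of transcript levels, the genes ran dpy-5, lon-3, dpy-13, dpy-4, sqt-2, sqt-1, sqt-3, rol-6 and dpy-17. Among the first 4, neighbours differed by less than the spread of their within-array differences. For dpy-5 minus lon-3 this was 0.18 ± 0.52 (SD, n = 4), and for dpy-4 minus dpy-13 it was -0.07 ± 0.23. dpy-4 lay above sqt-2 on all 4 arrays, by 0.86 ± 0.53 (SD, n = 4), but by only 0.07 in preparation 4. sqt-1 exceeded sqt-3 by 0.67 ± 0.61 (SD, n = 4), also on all 4 arrays, but by only 0.07 in preparation 2. rol-6 and sqt-3 could not be ordered, since rol-6 minus sqt-3 was -0.18 ± 0.59 (SD, n = 4) with a positive difference in 2 preparations. The last step, dpy-17 minus rol-6, was -4.25 ± 0.72 (SD, n = 4). These differences are descriptions with no test.

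The 9 genes shared a pattern across the preparations. The rule takes genes by symbol and uses no values, but the list was drawn up with earlier results of these data known. In 9 of 9 the lowest value was in preparation 2, and in 7 of 9 the highest was in preparation 4, the exceptions being dpy-4 and dpy-13, which were highest in preparation 1. Over the 14372 named genes with a value on every array, 29.7% were lowest in preparation 2 and 29.8% highest in preparation 4, and 12.7% were both. The deviation from the gene's own mean in preparation 2 lay between -1.74 for lon-3 and -0.47 for dpy-17. In preparation 4 it lay between 0.13 for dpy-13 and 1.27 for sqt-1. dpy-17, although far below 0, was also lowest in preparation 2 and highest in preparation 4, with a range of 1.06 log2 units. The place of the highest value depends on the centring. Medians of 17 housekeeping genes were 0.01, 0.20, -0.46 and 0.36 in preparations 1 to 4. Centred on these, only sqt-1, sqt-2 and rol-6 would stay highest in preparation 4. The other members would be highest in preparation 3, and all would stay lowest in preparation 2.

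The median range between arrays was 1.88 log2 units over the 9 genes, against 1.04 over all named genes with 4 values. For sqt-1, lon-3 and rol-6 the range was wider than in 97.2%, 96.9% and 95.7% of those genes, and for dpy-17 wider than in 51.6%. sqt-2 followed at 94.7%, and dpy-5, dpy-13, sqt-3 and dpy-4 stood at 86.7%, 84.3%, 76.1% and 74.1%. Preparation 2 also affected the calls. Without it 7 of the 9 genes were higher, against 5 with all arrays and 4 without preparation 1, 3 or 4, while dpy-17 was lower in each case. Among all probes and genes, 9.47% were higher without preparation 2, against 11.9% with all arrays. The share was 8.98%, 7.73% and 11.3% without preparation 1, 3 and 4.

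**Figure D2:**
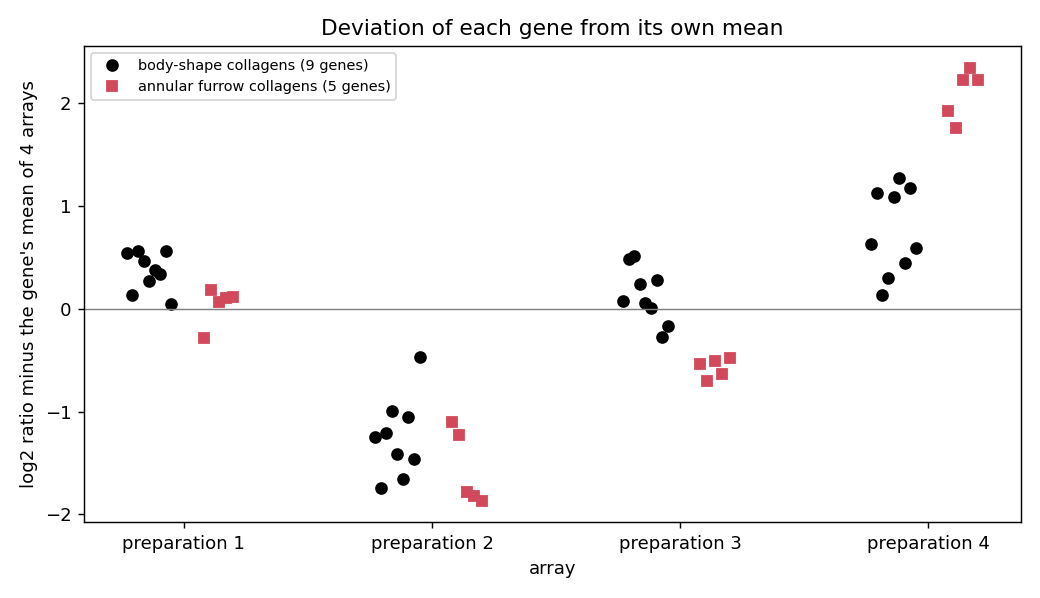
Log2 ratio minus the gene's own mean over the 4 arrays (vertical axis) on each array (horizontal axis), for the 9 body-shape collagens (circles) and the 5 measured annular furrow collagens (squares). All 14 genes are below their mean in preparation 2 and above it in preparation 4, where the furrow collagens deviate further.

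The annular furrow collagens, which line the circumferential furrows of the cuticle and whose loss also makes worms dumpy, showed the same order with a wider swing. Of the 6 listed, 5 were measured, and dpy-10 was not analysed here. In limma 0 of the 5 passed in either direction, and 0 had an unadjusted p under 0.05. The count passing stayed at 0 in all alternatives tried, while the count at an unadjusted p under 0.05 stayed at 0 except without preparation 4, when 2 were lower. dpy-7 had -0.19, -2.17, -0.78 and 1.92 in preparations 1 to 4, with a mean of -0.31 ± 0.55 (SE, n = 4). dpy-2 had -0.09, -2.01, -0.83 and 2.15, with a mean of -0.20 ± 0.57. Both were far below 0 in preparation 2 and far above it in preparation 4. dpy-3, dpy-8 and dpy-9 had means of 0.33, 0.36 and 0.08 and were likewise lowest in preparation 2 and highest in preparation 4. Without preparation 4 their means were -0.25, -0.28 and -0.66, so their signs rest on that array. The signs of dpy-7 and dpy-2 turned without preparation 2, at 0.32 and 0.41. That of dpy-2 also turned without preparation 3, at 0.02, and with quantile normalization between all arrays, at 0.1. The sign of dpy-9 also turned with the arrays of 1 title code averaged, at -0.3. The median over the group in preparations 1 to 4 was 1.75, 0.03, 1.50 and 2.52 for the body-shape collagens and 0.08, -1.70, -0.42 and 2.15 for the furrow collagens. The difference between the groups was not tested.

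Adult cuticle and strut collagens did not share 1 pattern across the preparations. bli-1 and bli-2, whose products form the struts of the adult cuticle, had means of 3.37 ± 0.23 and 4.40 ± 0.41 (SE, n = 4) and both passed (adjusted p = 0.000218 and 0.000661). bli-1 had 3.08, 3.09, 3.80 and 3.53, and bli-2 had 4.22, 2.78, 5.13 and 5.45. Both were high on all 4 arrays, and bli-2, like the body-shape collagens, was lowest in preparation 2 and highest in preparation 4. col-62 had 4.09, 4.36, 4.82 and 0.12, and col-7 had 4.38, 4.20, 4.74 and -0.16. Their means of 3.35 and 3.29 passed (adjusted p = 0.0116 and 0.0153). The adult-specific collagen gene col-19 had 2.47, 2.27, 1.08 and -2.65, with a mean of 0.79 that did not pass (adjusted p = 0.471). Without preparation 4 its mean was 1.94 and it passed (adjusted p = 0.00936), so that 5 of the 5 were higher. These 3 col genes were lowest in preparation 4, where 7 of the 9 body-shape collagens were highest with median centring. Of the 5 measured, 4 were higher and 0 lower, and 0 had an unadjusted p under 0.05 on the lower side. Without preparation 3, 2 were higher, as col-7 and col-62 did not pass (adjusted p = 0.0943 and 0.077). With housekeeping centring, 3 were higher, as col-7 did not pass (adjusted p = 0.0579) and col-62 was just inside the threshold (0.0481). bli-6 was not analysed here.

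Stage markers moved with the preparations as well. Major sperm proteins, made by hermaphrodites at L4, were higher for 29 of 30 genes, with medians of 3.52, 3.53, 2.03 and 1.12 in preparations 1 to 4. The 3 yolk protein (vitellogenin) genes measured are expressed in adults. Their medians in preparations 1 to 4 were -2.22, -0.73, -3.33 and -5.28. vit-5 and vit-2 were lower, with means of -3.18 and -2.83 (adjusted p = 0.00706 and 0.015). vit-6, which had 3 values, had a mean of -2.29 and did not pass (adjusted p = 0.107). It had no value in preparation 1, where the median is of vit-2 and vit-5 only. Yolk ratios were thus highest in preparation 2, where the body-shape collagens were lowest, and lowest in preparation 4. Medians of 17 housekeeping genes were 0.01, 0.20, -0.46 and 0.36. The part of stage, timing within the moulting cycle or array quality in the shared pattern was not tested. In whole-worm RNA, fewer epidermal cells expressing a gene and less RNA per cell cannot be told apart. Values were present for 21084 to 21489 of 21632 probes per array, and the arrays correlated at r = 0.56 to 0.72 over probes.

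**Figure D3:**
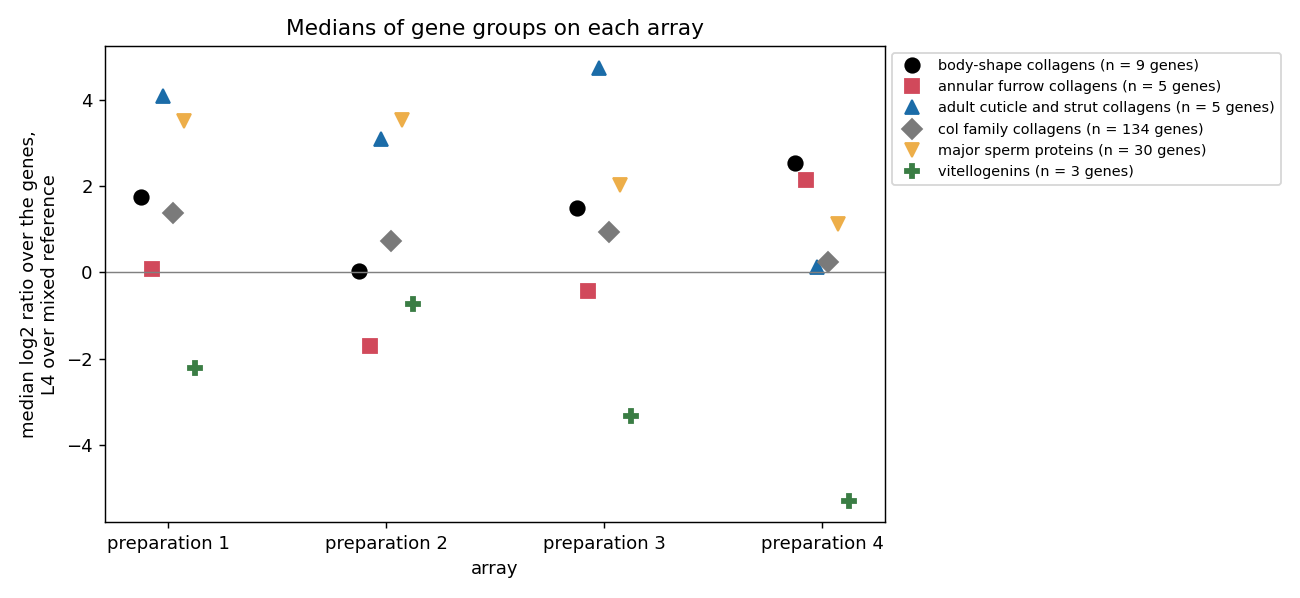
Median log2 ratio of L4 RNA over the mixed reference (vertical axis) for 6 groups of genes on each array (horizontal axis). Body-shape collagens (circles) are lowest in preparation 2, at 0.03, and highest in preparation 4, at 2.52. Adult cuticle and strut collagens (triangles) have their lowest median in preparation 4, at 0.12, the value of col-62. The strut collagen genes bli-1 and bli-2 stood at 3.53 and 5.45 on that array.

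The genes most like each member were found by the smallest Euclidean distance over the 4 log2 ratios, among named genes with 4 values. dpy-13 and dpy-4 were each closest to the collagen gene col-157, which had 2.94, 1.32, 2.74 and 2.29, at distances of 0.30 and 0.41. The next closest to each was the other, at 0.42. For dpy-5 the closest were oac-30 and the collagen gene col-73, at 0.76 and 0.78. lon-3 was closest to the collagen gene col-182 and then to dpy-5, at 0.79 and 0.97.

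sqt-1 and sqt-2 had the same closest genes. The first was fkb-3, which encodes an FKBP-type peptidyl-prolyl isomerase, at 0.27 from sqt-1 and 0.28 from sqt-2, with log2 ratios of 1.69, -0.10, 1.53 and 2.77. The second was the hedgehog-related gene grl-7, at 0.32 and 0.30. The closest to sqt-3 were C15C6.1 and nmgp-1, at 0.13 and 0.16, and to rol-6 T09F5.1 and lgc-31, at 0.52 and 0.54. The 2 closest to dpy-17 were hsp-12.3, a gene of the small heat shock family, at 0.58 and far-7, a fatty acid and retinol binding protein gene, at 0.60. Likeness over 4 arrays is a description and has no test.

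The genes that modify, process and crosslink collagens had means from -0.43 to 1.46. Among the 13 measured, 5 passed as higher and 0 as lower, and 0 had an unadjusted p under 0.05 on the lower side, with a median of 0.51. dpy-18, the alpha subunit of the prolyl 4-hydroxylase that stabilises cuticle collagens, had 1.36, 0.64, 1.95 and 1.89 and a mean of 1.46 ± 0.27 (SE, n = 4, adjusted p = 0.00771). It was above 0 on all arrays and lowest in preparation 2. pdi-2, the beta subunit of that enzyme, had a mean of 0.96 ± 0.26 (adjusted p = 0.0342). phy-3, a prolyl 4-hydroxylase gene of reproductive tissue, had a mean of 1.08 ± 0.28 (adjusted p = 0.0296). The proprotein convertase gene bli-4 and the dual oxidase gene bli-3 had means of 0.18 and 0.06 and did not pass (adjusted p = 0.66 and 0.869). Of the 13, 4 were lowest in preparation 2, or 30.8%, and 9 highest in preparation 4, or 69.2%. Over all named genes with 4 values these shares were 29.7% and 29.8%. The count of 5 was 1 without preparation 3 and with housekeeping centring, 2 without preparation 1, without preparation 2 and with the arrays of 1 title code averaged, and 3 without preparation 4.

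In the DBL-1 pathway, a TGF-beta signal that sets body size and acts on cuticle collagen genes, 2 of 10 measured genes were lower and 0 higher, with 0 at an unadjusted p under 0.05 on the higher side. These were daf-4, the type II receptor, at -1.49 ± 0.30 (SE, n = 4, adjusted p = 0.0109) and sma-10, a transmembrane regulator of the pathway, at -1.06 ± 0.23 (adjusted p = 0.0147). Without preparation 1 or 3, sma-10 did not pass (adjusted p = 0.0629 and 0.0548). The share lower in the pathway was 20%, against 9.66% of all named genes, with no test of the difference. The ligand gene dbl-1 had a mean of -0.27 and did not pass (adjusted p = 0.4). The pathway's negative regulators lon-1 and lon-2, whose loss makes worms long as does that of lon-3, had means of 0.03 and 0.39 and did not pass (adjusted p = 0.957 and 0.223).

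Of 7 epidermal and moulting transcription factors, 4 were lower and 0 higher, with 0 at an unadjusted p under 0.05 on the higher side. peb-1 had a mean of -1.76 ± 0.43 (SE, n = 4, adjusted p = 0.0223), the nuclear receptor gene nhr-25 one of -1.09 ± 0.29 (0.0316), and the epidermal GATA factor gene elt-3 one of -0.98 ± 0.26 (0.0285). nhr-23, a nuclear receptor required for moulting, and blmp-1, a zinc finger factor of the epidermis, had means of 0.38 and -0.18 and did not pass (adjusted p = 0.298 and 0.69). The count of 4 was 0 in limma without preparation 3, when 4 had an unadjusted p under 0.05, 1 without preparation 1 or 2, 3 without preparation 4 and 2 with housekeeping centring.

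Among the 134 col family collagens, 59 were higher, or 44%, and 20 lower, or 14.9%, with a median of 0.78. The body-shape collagens, at 55.6% higher and 11.1% lower of 9 genes, stood beside this family with no test of the difference. dpy-17 lay within the range of the lower col genes, the lowest of which were col-36 at -5.20 ± 0.28, col-84 at -4.70 ± 0.26 and col-158 at -4.14 ± 0.28 (SE, n = 4). dpy-5 lay below the highest, which were col-120 at 5.39 ± 0.38, col-60 at 5.09 ± 0.40 and col-138 at 5.07 ± 0.29. A value on every array was present for 132 col genes. Of these, 58 were lowest in preparation 2, or 43.9%, and 25 highest in preparation 4, or 18.9%. Among the body-shape collagens these counts were 9 of 9 and 7 of 9. col-7, col-19 and col-62 are counted here and among the adult collagens. Without preparation 3, 39 col genes were higher. A highest value in preparation 4 was not particular to collagens. It was found in 9 of 10 DBL-1 pathway genes and 6 of 7 transcription factors, of which 4 and 2 were lowest in preparation 2.

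**Figure D4:**
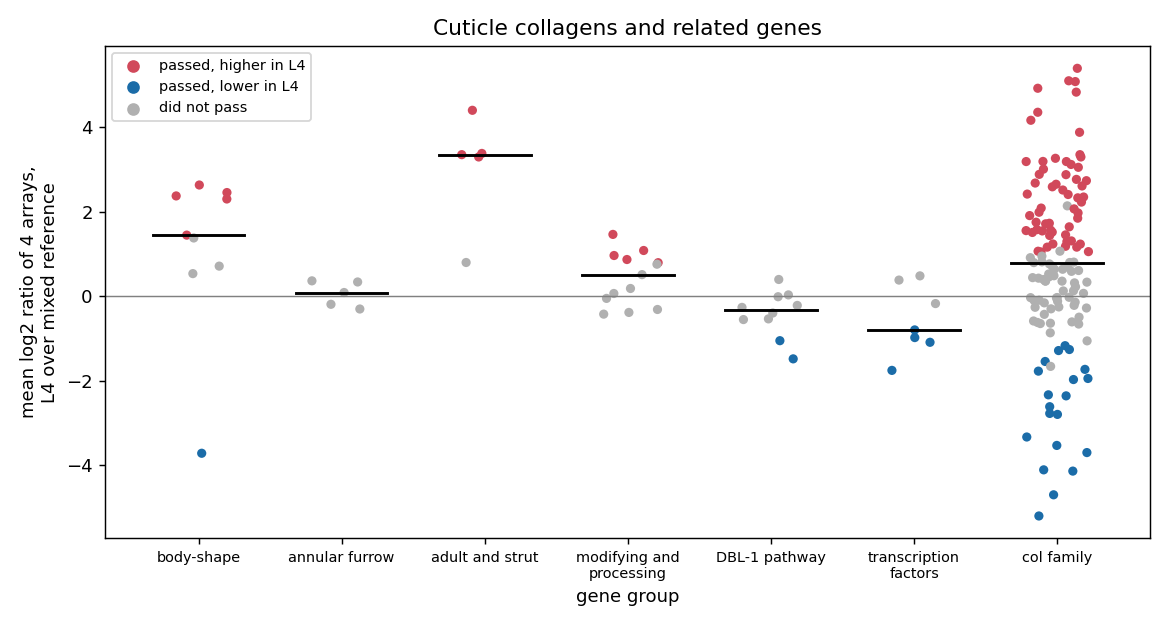
Mean log2 ratio over the 4 arrays (vertical axis) for each gene of the body-shape collagens and 6 related groups (horizontal axis). Points are genes coloured by the limma call, and black lines are group medians. Body-shape and col family collagens have called genes on both sides of 0, while the 5 annular furrow collagens lie between -0.31 and 0.36.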

How the data were processed

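The unit of the values is not stated. The authors' deposited values were read as log2 ratios, since 2 raised to each value below 0 fell on a grid of 0.001 (tolerance 0.02 steps) for 100% of them. No source used here gives the dyes, the array type, the background correction or the normalization. The deposited column medians were -0.047, 0.007, -0.1 and -0.042, and whether arrays had been centred is unknown. Each array was centred on its median, probes of 1 gene were averaged, and a value on at least 3 arrays was required.

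The platform annotation named 1 gene for 16450 probes, several for 247 and none for 4935. Of the probes with 1 gene, 16360 matched RefSeq names (assembly WBcel235), and 0 symbols changed.

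limma 3.58.1 (lmFit, eBayes; R 4.3.3) tested the mean log2 ratio against 0, with 5.15 prior degrees of freedom. The calculation was tested on simulated data. The reference counts as 1 sample, and its own spread is left out. SE is limma's moderated one. An exact sign-flip test over 4 arrays cannot go below p = 0.125 and was not used. The number of arrays limits the precision. Whether probes distinguish related collagens, or the major sperm protein genes from each other, was not tested. The 30 major sperm protein genes may therefore not be separate readings.

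All members were named. Related lists of at most 6 measured genes were named in full, and otherwise up to 3 passing genes in each direction. dpy-31, bli-3, bli-4, dbl-1, lon-1, lon-2, nhr-23 and blmp-1 were named for their roles after their values were seen. The members and lists were chosen with earlier results of these data known. Alternatives changed the centring, the normalization between arrays, the filter, the averaging of probes, the shrinkage and the arrays included. Figures used matplotlib 3.10.9 (Python 3.11.15).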

Additional observations from a re-analysis of the deposited data

Results flagged for a closer look

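Of 63 values examined over the 4 arrays, 7 had 1 array far from the other three by Dixon's test for 4 values. Chance gives such a gap in about 1 of 20. dpy-4 (gap over range 0.848) and sqt-3 (0.889) had preparation 2 far below the others, at 1.30 against 2.54 to 2.76 for dpy-4 and -0.35 against 0.99 to 1.15 for sqt-3. In dpy-4 the gap was larger in 1 of its 2 probes (0.949), with 1.24 in preparation 2 and 2.92 to 3.01 in the others. Preparation 4 stood apart for the adult collagen genes col-7 (0.889), at -0.16 against 4.20 to 4.74, and col-62 (0.844), at 0.12 against 4.09 to 4.82. It also did for sma-10 (0.844), at -0.48 against -1.32 to -1.19. The median of the 7 transcription factors (0.853) was 0.01 in preparation 4 and -0.89 to -0.75 in the others.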

How the results depend on the processing

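dpy-4, dpy-5, dpy-13 and lon-3 were higher and dpy-17 lower in every alternative, and no member changed sign. The median of the members ran from 1.08 to 1.92 when 1 preparation was left out and from 1.22 to 1.61 in the other settings. With housekeeping centring, 1372 probes and genes were called higher in all, against 2367, and 43 against 66 over the related lists together. Leaving out 1 preparation gave 1489 to 2165 higher and 1081 to 1547 lower, against 1944 lower with all arrays, and 42 to 73 higher over the related lists. These have fewer arrays, and the lowest counts came without preparation 3. All other counts over the members, all features and the related lists together stayed within 1.5 times. The adjusted p of sqt-1 ran from 0.00601 without preparation 2 to 0.151 without preparation 4. The letter code as a random block was not run, because its correlation could not be estimated from 4 arrays, and averaging the arrays that share a code was chosen instead after seeing the data. No paired analysis was possible because the labels give 1 group. A log2 ratio carries no measure of signal over background, so the part of dim spots was not tested.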
